A study of Mus musculus with 6 samples.

Results

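The genes of glucose breakdown were described here across 3 states of HOXA9-immortalized granulocyte-macrophage progenitors (iGMPs). The set held 35 of the 34199 gene symbols in each count file: every listed enzyme, transporter or kinase of glycolysis, lactate export and the pentose phosphate pathway whose symbol was present in the files, and all 35 were found. iGMPs are bone marrow cells of C57Bl/6 mice that keep dividing as progenitors because a HOXA9 protein fused to a mutant estrogen receptor stays active as long as estradiol is present. All 6 libraries came from such Lys-GFP-ER-HoxA9 cells, which also carry a GFP reporter driven by the Lysozyme promoter and are clonal lines grown with stem cell factor. The control group was treated with IPTG in the presence of estradiol and, per the methods of the study, carried an inducible vector with a spacer sequence in place of a hairpin. The CAF-1 OFF group was grown with estradiol at 150 ng/ml and given 500 µM IPTG for 24 h to induce a hairpin RNA that targets Chaf1b, which encodes part of CAF-1, a chaperone that places histones on new DNA. The HOXA9 OFF group was washed free of estradiol and harvested at 24 h, and the labels did not say whether it received IPTG or which clone it came from. Each group had 2 libraries, so every spread rests on n = 2. The labels did not state that the 2 libraries of a group were separate cultures, so p-values measured only the spread between these libraries, which may be technical. The study speaks of independent sub-clones for RNA-seq of these cells at another time after induction, and the labels do not say which clone gave each library used here.

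Glycolysis splits glucose into pyruvate and yields ATP and NADH. Hexokinase traps glucose in the cell, and phosphofructokinase is the committed step of glycolysis. PFKFB enzymes set the level of the activator fructose-2,6-bisphosphate, lactate dehydrogenase regenerates NAD+ and monocarboxylate transporters export the lactate. The pentose phosphate pathway branches off at glucose-6-phosphate, its oxidative arm makes NADPH, and its non-oxidative arm returns sugars to glycolysis. In neutrophils and macrophages, NADPH feeds the oxidase that produces superoxide during killing of microbes, and mature neutrophils rely largely on glycolysis for ATP.

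Reads assigned to genes numbered 16773560 to 25170898 per library, at which 3 counts corresponded to 0.118 to 0.182 CPM (read counts per 1000000 reads, on TMM-scaled library sizes). CPM is used below for levels of 1 gene across libraries, and CPM per kb of exon where levels of different genes are set side by side. Exon length is that of the merged exons of all transcripts of a gene. It can exceed the longest coding transcript by amounts that differ between genes, so rankings and shares per kb depend on it. The hairpin target Chaf1b stood at 89.95 and 105 CPM in control, 17.8 and 12.1 in CAF-1 OFF, and 64.6 and 61.4 in HOXA9 OFF, so both CAF-1 OFF libraries were below both controls (log2 fold change -2.71 ± 0.20 SE, edgeR FDR 0.0198). Chaf1b was also called lower in HOXA9 OFF (log2 fold change -0.63 ± 0.18 SE, edgeR FDR 0.0396). The study attributes the Hoxa9 reads of these cells to the fusion transgene. Estradiol keeps the fusion protein active, so Hoxa9 counts do not check the HOXA9 OFF label. They stood at 277 and 214 CPM in control, 204 and 271 in CAF-1 OFF, and 356 and 362 in HOXA9 OFF. The difference of HOXA9 OFF from control did not pass (log2 fold change 0.55 ± 0.17 SE, edgeR FDR 0.0535). CAF-1 OFF was called lower than HOXA9 OFF (log2 fold change -0.60 ± 0.17 SE, edgeR FDR 0.0412). The progenitor markers fixed for this cell type were all detected in control libraries, with Cd34 at 1805 and 1797 CPM and Kit at 709.5 and 542 CPM.

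Of the 35 genes, 33 had enough reads to be tested. Eno2, the neuronal enolase, had 0 counts in all 6 libraries. Ldhb, the lactate dehydrogenase subunit of heart muscle, had 0 and 0 counts in control, 0 and 1 in CAF-1 OFF and 16 and 2 in HOXA9 OFF. Among the tested genes, control means ran from 0.826 ± 0.391 CPM (SD, n = 2) for Pdk2, a pyruvate dehydrogenase kinase, to 1700.4 ± 54.7 CPM for Tkt, and the plot of levels by library shows all 33.

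**Figure D1:**
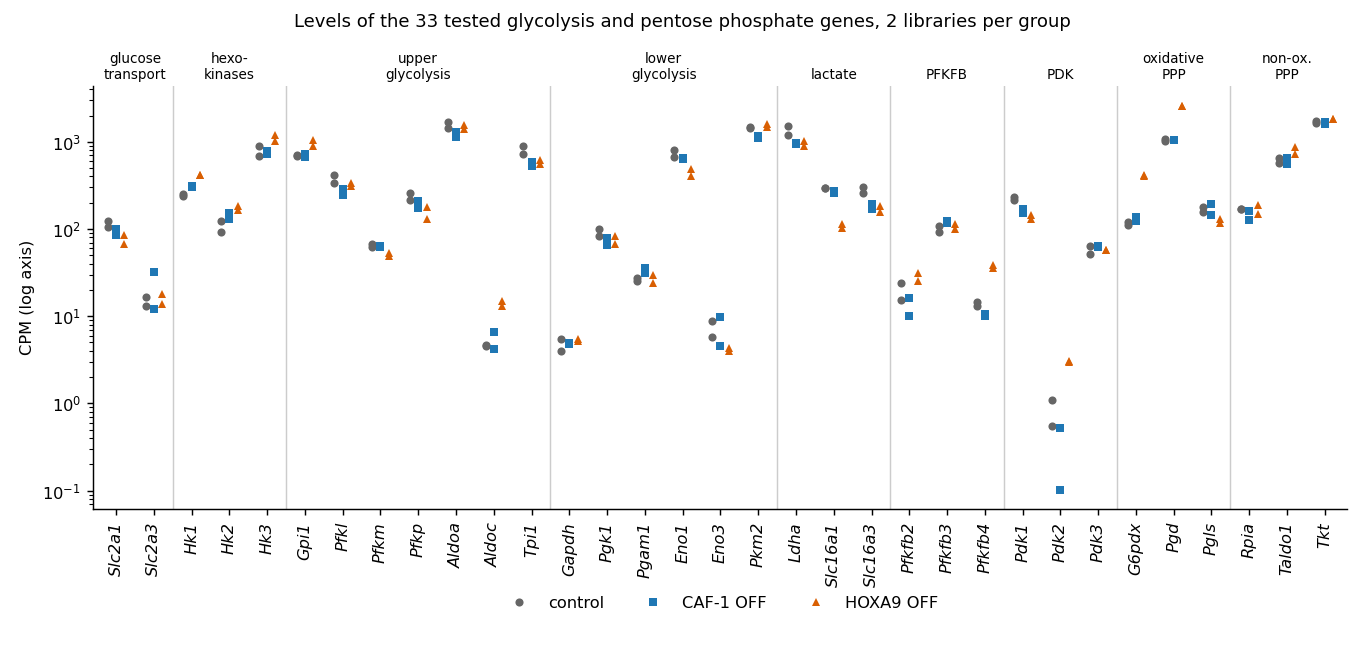
CPM (log axis) of the 33 tested genes in each library, grouped by role. Each point is 1 library, grey circles are control, blue squares CAF-1 OFF and orange triangles HOXA9 OFF. The HOXA9 OFF points stand apart from the other 4 libraries for Aldoc, Slc16a1, Pfkfb4, G6pdx and Pgd, whereas CAF-1 OFF and control points lie close together for most genes.

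Per kb of exon, the most abundant transcripts in control libraries were Pkm2, pyruvate kinase, at 609 ± 3.64 CPM per kb (SD, n = 2), Aldoa, the main aldolase, at 569.9 ± 59.4 CPM per kb, and Ldha at 459 ± 76.8 CPM per kb. Between Pkm2 and Aldoa the difference was within the SD of Aldoa. Next came Tpi1, triosephosphate isomerase, at 364 ± 53.3 CPM per kb, Taldo1, transaldolase, at 306 ± 29.2 CPM per kb, and Tkt, transketolase, at 260.3 ± 8.37 CPM per kb. The difference between Tpi1 and Taldo1 was close to the SD of Tpi1. This order depends on the length used, here that of all merged exons. It is 2391 bases for Pkm2, 2754 for Aldoa and 2982 for Ldha, whose longest coding transcripts span 2221, 1549 and 1766 bases. For Tpi1, Taldo1 and Tkt it is 2209, 1998 and 6533, beside transcripts of 1607, 1229 and 3225 bases.

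For 4 of the 35 genes, over 50% of the transcript recurs elsewhere in the genome. When the longest coding transcript of each gene was cut into every possible 50-base window and searched on both strands of the mm9 chromosomes outside the gene itself, 92.9% of the windows of Pgk1, 91.9% of Pgam1, 85.6% of Gapdh and 72.2% of Eno1 had another exact copy. No window was repeated for 16 of the 35 genes, and among the abundant transcripts the share was 41.4% for Pkm2, 29.1% for Ldha, 23.6% for Tpi1 and 14.8% for Aldoa. Reads with more than 1 alignment are dropped by HTSeq-count, and Gapdh, the enzyme often used as an abundant reference transcript, had only 141 and 68 counts in control. Pgk1 stood at 40.6 ± 5.54 CPM per kb, Pgam1 at 14.5 ± 0.872 CPM per kb and Gapdh at 2.11 ± 0.499 CPM per kb in control, far under their neighbours in the pathway. The levels of genes with repeated sequence are therefore uncertain, and how much of the shortfall came from dropped reads was not tested.

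**Figure D2:**
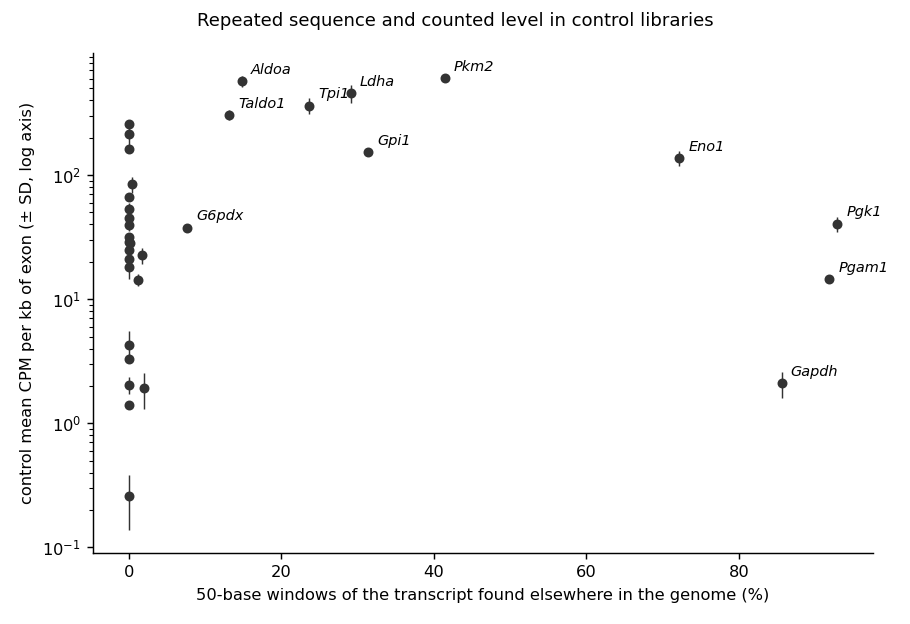
Share of 50-base transcript windows with another exact copy in the genome (x axis, %) against control mean CPM per kb of exon (y axis, log scale, bars are SD of 2 libraries) for the 33 tested genes. Gapdh, Pgam1, Pgk1 and Eno1 lie to the right with over 50% repeated windows, and Gapdh combines a high repeated share with a low level.

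In CAF-1 OFF against control, which asks what the first day of Chaf1b knockdown did, 0 of 33 genes were called by edgeR, which required a change of 1.5-fold or more with a false discovery rate (FDR) under 0.05. Over all 12460 genes tested, 0.0321% were called. Without adjustment, 9 of the 33 genes had p under 0.05, 8 of them lower, beside 10.7% of all genes, and the DESeq2 Wald test called 1, Slc16a3, beside 1.54% of all genes. The median log2 fold change was -0.06 over the 33 genes and -0.004 over all genes. Both CAF-1 OFF libraries lay below both controls for 15 of 33 genes, beside 20% of all genes, and above both for 5, beside 20.1%. The 6 pentose phosphate genes had log2 fold changes from -0.23 for Rpia to 0.16 for G6pdx.

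The 5 lowest FDR values among the 33 genes were those of Slc16a3, Pdk1, Tpi1, Pkm2 and Ldha, all lower in CAF-1 OFF, and none passed the threshold. Slc16a3 encodes MCT4, the lactate exporter of strongly glycolytic cells, and stood at 259 and 307 CPM in control, 168 and 194 in CAF-1 OFF, and 155 and 183 in HOXA9 OFF. Both CAF-1 OFF libraries were below both controls (log2 fold change -0.65 ± 0.14 SE, edgeR FDR 0.213). The DESeq2 Wald test gave it an adjusted p of 0.0063, and edgeR without the low-count filter an FDR of 0.00168. Ldha, the enzyme that turns pyruvate into lactate, stood at 1208 and 1532 CPM in control, 972 and 951 in CAF-1 OFF, and 884 and 1023 in HOXA9 OFF. Its CAF-1 OFF libraries were again both below the controls (log2 fold change -0.51 ± 0.14 SE, edgeR FDR 0.292). Pdk1, a kinase that shuts off pyruvate dehydrogenase, stood at 214 and 231 CPM in control, 154 and 169 in CAF-1 OFF, and 130.1 and 146 in HOXA9 OFF. Its groups did not overlap either (log2 fold change -0.46 ± 0.11 SE, edgeR FDR 0.249). Tpi1 had a log2 fold change of -0.54 ± 0.13 SE (edgeR FDR 0.266), Pfkl, the liver-type phosphofructokinase, -0.48 ± 0.14 SE (edgeR FDR 0.318), Aldoa -0.37 ± 0.12 SE (edgeR FDR 0.363) and Pkm2 -0.35 ± 0.09 SE (edgeR FDR 0.273). In the other direction, Hk1, a hexokinase bound to mitochondria, had 0.33 ± 0.09 SE (edgeR FDR 0.309) and Hk2, an inducible hexokinase, 0.38 ± 0.16 SE (edgeR FDR 0.480). The summed level of the 4 genes of lactate and its transport was 1759.8 and 2137 CPM in control and 1409.6 and 1401 CPM after Chaf1b knockdown, lower in both libraries. Cell type markers were read beside these values. None of 13 neutrophil, 10 monocyte and macrophage, 8 progenitor and 6 erythroid and megakaryocyte markers tested was called in CAF-1 OFF, beside 0.0321% of all genes. At FDR under 0.1, where 30 of 12460 genes were called, Mmp8 (log2 fold change 3.12, edgeR FDR 0.0757) and S100a8 (2.80, edgeR FDR 0.0977) were higher. Of the 13 neutrophil markers, 12 had log2 fold changes above 0, with a median of 1.10, and so had all 6 erythroid and megakaryocyte markers, with a median of 0.62. The summed neutrophil markers were 11790.0 and 8824 CPM in control and 14344 and 13348 CPM in CAF-1 OFF, without overlap, and the summed erythroid and megakaryocyte markers 30.8 and 33.3 CPM and 85.00 and 40.9 CPM. Progenitor marker sums overlapped, at 3952 and 3789 CPM in control and 4330 and 3920 CPM in CAF-1 OFF. The part of these markers in the metabolic values was not tested.

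**Figure D3:**
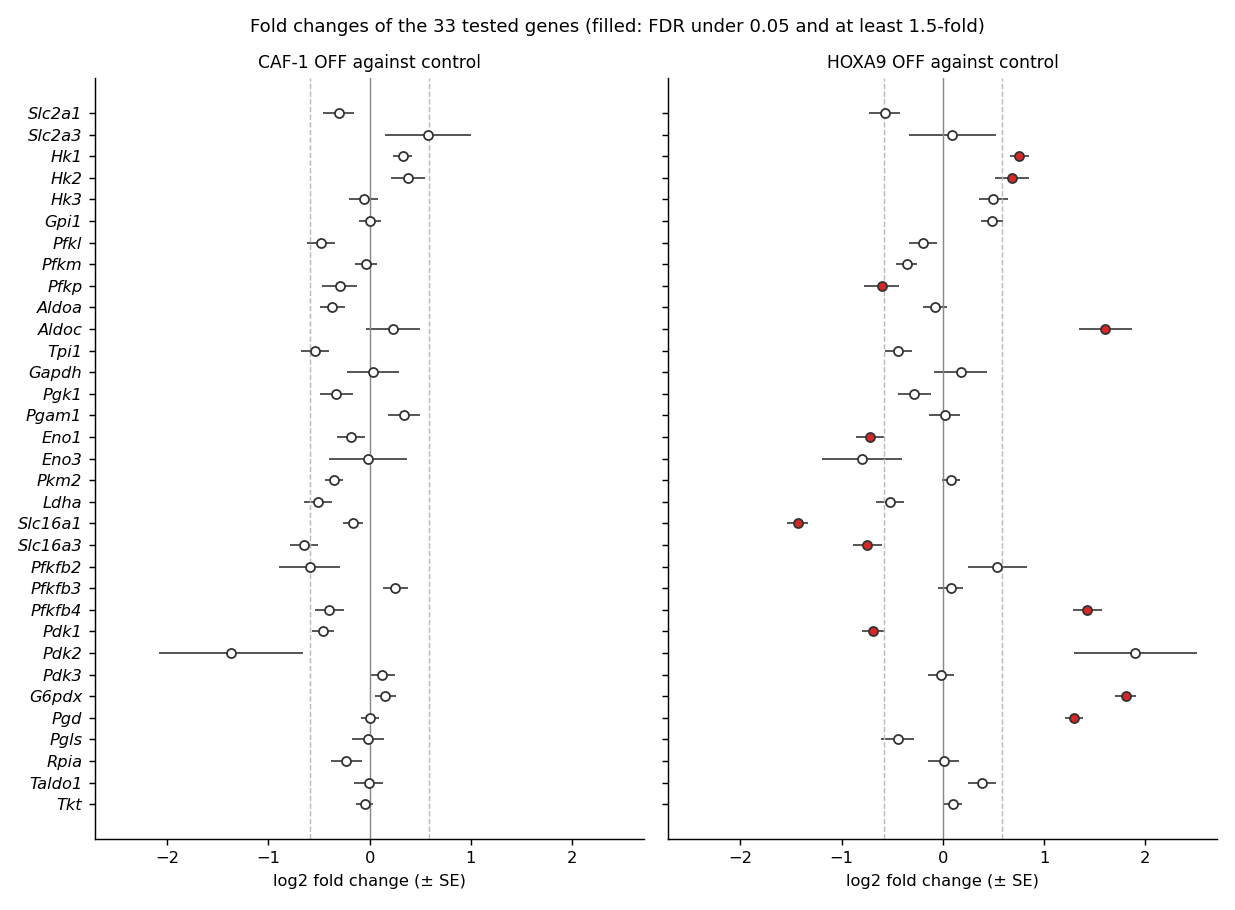
Log2 fold change (x axis, bars are SE) of each of the 33 tested genes in CAF-1 OFF (left) and HOXA9 OFF (right) against the same 2 control libraries. Filled points passed FDR under 0.05 and at least 1.5-fold (dashed lines): 0 genes on the left and 11 on the right.

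A further list of 14 genes known to respond to hypoxia was set beside these values, because Slc16a3, Ldha and Pdk1 are textbook members of that response. None of its 12 tested genes was called in CAF-1 OFF, beside 0.0321% of all genes. All 12 log2 fold changes were below 0, with a median of -0.25 and a range from -0.90 to -0.04. Of all genes, 49.2% were above 0. For 6 of the 12 both CAF-1 OFF libraries lay below both controls, beside 20% of all genes, and for the other 6 the groups overlapped. Fewer were below 0 when 1 library was left out, 8 of the 12 without control replicate 2 (median -0.16) and 10 without CAF-1 OFF replicate 2 (median -0.11), while all 12 stayed below 0 without control replicate 1 or CAF-1 OFF replicate 1. Hif1a, the inducible subunit of the hypoxia factor, stood at 131 and 134 CPM in control, 111 and 121 in CAF-1 OFF, and 151 and 174 in HOXA9 OFF, and its difference in CAF-1 OFF did not pass the test (log2 fold change -0.19 ± 0.11 SE, edgeR FDR 0.609). The summed level of the list was 1752 and 2113 CPM in control and 1465 and 1606 CPM after CAF-1 loss, with no overlap between the groups.

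In HOXA9 OFF against control, which follows the cells into normal myeloid differentiation, 11 of 33 genes were called, beside 22% of all genes. Of these, 6 were higher (Hk1, Hk2, Aldoc, Pfkfb4, G6pdx and Pgd), beside 13% of all genes, and 5 lower (Pfkp, Eno1, Slc16a1, Slc16a3 and Pdk1), beside 8.97%. The split of calls over all genes was 1622 higher and 1118 lower, and 1434 higher and 1409 lower when scaled by library size alone, which shifted the median log2 fold change of all genes to -0.08. Each of the 11 genes kept its direction under both scalings. A further 6 genes had an FDR under 0.05 with less than 1.5-fold change: Slc2a1, Pfkm, Tpi1 and Ldha lower, and Hk3 and Gpi1 higher. Over all 12460 genes, 3716 had an FDR under 0.05 at any fold change, and 2740 of them were called. With library size alone, Slc2a1 and Ldha passed 1.5-fold too (log2 fold changes -0.65 and -0.60). In bulk RNA, fewer cells of a type and less RNA per cell cannot be told apart. Markers of myeloid cells moved with these genes: 8 of 13 tested neutrophil markers were called higher and 1 (Ctsg) lower, and 8 of 10 monocyte and macrophage markers higher and 1 lower. Of 8 progenitor markers, 6 were called lower and 1 higher. The neutrophil list includes 4 granule genes that progenitors already express, Mpo, Elane, Prtn3 and Ctsg, which made up most of its sum. The whole list summed to 11790.0 and 8824 CPM in control and 14778 and 11354 CPM in HOXA9 OFF, ranges that overlap. Without those 4 genes it summed to 221 and 178 CPM in control, 644 and 892 in CAF-1 OFF and 1212 and 711 in HOXA9 OFF. Most of that CAF-1 OFF sum was Mmp8, a collagenase, and without it as well the sums were 151 and 137, 312 and 262 and 1156 and 649 CPM in the same order, with no overlap among the groups. Monocyte and macrophage markers summed to 1461 and 1624 CPM in control and 1894 and 2955 CPM in HOXA9 OFF, mostly from F13a1, which was not called, and Ccr2, which was called lower. Without these 2 they summed to 101 and 67.2 CPM in control and 667 and 717 CPM in HOXA9 OFF. For progenitor markers the sums were 3789 to 3952 CPM and 1657 to 1754 CPM. Of 6 tested erythroid and megakaryocyte markers 2 were called higher, with sums of 30.8 and 33.3 CPM in control and 82.9 and 87.97 CPM in HOXA9 OFF. Of 4 tested lymphoid markers 2 were called lower, with sums of 130.4 and 151 CPM and 54.2 and 63.4 CPM. The part of these shifts in the values below was not tested.

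The oxidative arm of the pentose phosphate pathway held the largest fold change among the 11 called genes, that of G6pdx. G6pdx (ENSMUSG00000031400.4, chrX:71654822-71674533 in mm9) encodes glucose-6-phosphate dehydrogenase, the entry enzyme and first source of NADPH, and stood at 121 and 112 CPM in control, 123 and 137 in CAF-1 OFF, and 414 and 400.1 in HOXA9 OFF. Both HOXA9 OFF libraries were above the 4 others, which lay close together (log2 fold change 1.81 ± 0.11 SE, edgeR FDR 0.00028). Pgd (ENSMUSG00000028961.9, chr4:148524100-148540880), the dehydrogenase that makes the second NADPH, stood at 1089 and 1018 CPM in control, 1055 and 1054 in CAF-1 OFF, and 2600.2 and 2558 in HOXA9 OFF. Control and CAF-1 OFF overlapped, and HOXA9 OFF was above both (log2 fold change 1.29 ± 0.09 SE, edgeR FDR 0.000447). Pgls, the lactonase that works between them, did not follow and stood at 157 and 181 CPM in control, 191 and 143 in CAF-1 OFF, and 131 and 117 in HOXA9 OFF (log2 fold change -0.45 ± 0.16 SE, edgeR FDR 0.0784).
The promoters of both genes are shown because their transcripts rose together. They come from the RefSeq promoter table of build GRCm38.p6, which differs from the build of the counts, and each run covers 250 bases before to 50 bases after the most upstream start, 5′ to 3′ on the strand of the gene, chrX:74428831-74429130 (- strand) for G6pdx and chr4:149166656-149166955 (- strand) for Pgd. Capitals mark matches on either strand to 4 motifs: ACGTG, the core of the hypoxia response element, CACGTG, the E-box bound by MYC and MLX family factors, which contains ACGTG, TTGCNNCAA, a C/EBP site, and CCGGAAG, an ETS site.
G6pdx: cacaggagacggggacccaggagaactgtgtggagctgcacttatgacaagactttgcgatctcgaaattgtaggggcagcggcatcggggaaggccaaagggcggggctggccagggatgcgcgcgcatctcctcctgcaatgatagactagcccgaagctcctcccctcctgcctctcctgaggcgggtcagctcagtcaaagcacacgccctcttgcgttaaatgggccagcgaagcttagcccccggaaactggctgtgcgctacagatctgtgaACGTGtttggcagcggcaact
Pgd: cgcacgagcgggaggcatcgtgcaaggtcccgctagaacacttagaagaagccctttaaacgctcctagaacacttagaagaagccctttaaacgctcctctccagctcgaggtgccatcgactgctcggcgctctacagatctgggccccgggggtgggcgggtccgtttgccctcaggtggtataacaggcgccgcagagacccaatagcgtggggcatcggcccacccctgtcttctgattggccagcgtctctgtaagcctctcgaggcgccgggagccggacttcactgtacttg
The G6pdx window held 1 ACGTG match and the Pgd window held no match to the 4 motifs. A match is a description of the letters, not evidence of binding.

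Of the exonic bases of G6pdx, 13.6% overlap Ikbkg on the opposite strand, and whether the counting used strand was not stated. Ikbkg averaged 62.6 ± 3.91 CPM in control and 75.3 ± 4.61 CPM in HOXA9 OFF, and its part in the G6pdx counts was not tested. Pgls shares 20.6% of its exonic bases with Fam129c on the same strand, which averaged 3.53 ± 0.230 CPM in control and 2.88 ± 0.387 CPM in HOXA9 OFF. The non-oxidative arm had no called gene. Tkt, transketolase, stood at 1739 and 1662 CPM in control, 1678 and 1608 in CAF-1 OFF, and 1821 and 1821 in HOXA9 OFF, and Taldo1 at 653 and 571 CPM in control, 656 and 559.8 in CAF-1 OFF, and 876 and 724 in HOXA9 OFF. HOXA9 OFF was above control in both libraries for both genes, but the differences did not pass (log2 fold change 0.10 ± 0.09 SE, edgeR FDR 0.426 for Tkt; log2 fold change 0.39 ± 0.14 SE, edgeR FDR 0.0811 for Taldo1). Rpia, the ribose-5-phosphate isomerase, had a log2 fold change of 0.01 ± 0.15 SE. The summed level of the oxidative genes was 1368 and 1310.1 CPM in control and 3145 and 3076 CPM in HOXA9 OFF, and that of the non-oxidative genes 2562 and 2401 CPM and 2886 and 2695 CPM.

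Genes outside the set that supply or consume NADPH were counted from a further list of 14. In HOXA9 OFF, 7 were called higher and 1 lower, beside 13% and 8.97% of all genes. Cybb, the catalytic subunit of the phagocyte NADPH oxidase, stood at 0.314 and 0.0581 CPM in control, 1.82 and 2.84 in CAF-1 OFF, and 51.9 and 23.2 in HOXA9 OFF (log2 fold change 7.46 ± 0.66 SE, edgeR FDR 0.000893), and Ncf1, a cytosolic subunit of that oxidase, at 282 and 243 CPM in control, 261 and 222 in CAF-1 OFF, and 666 and 598 in HOXA9 OFF (log2 fold change 1.27 ± 0.13 SE, edgeR FDR 0.00140). Gsr, glutathione reductase, which uses NADPH, stood at 461 and 312 CPM in control, 486 and 461 in CAF-1 OFF, and 1264 and 951 in HOXA9 OFF, and Idh1, a cytosolic dehydrogenase that makes NADPH, at 281 and 244 CPM in control, 329 and 345 in CAF-1 OFF, and 535 and 566 in HOXA9 OFF. Gsr had a log2 fold change of 1.52 ± 0.21 SE and Idh1 of 1.07 ± 0.11 SE in HOXA9 OFF (edgeR FDR 0.00351 and 0.00135). The gene called lower was Idh2, a mitochondrial dehydrogenase that also makes NADPH, at 619 and 658 CPM in control, 632 and 546 in CAF-1 OFF, and 396 and 391 in HOXA9 OFF (log2 fold change -0.70 ± 0.11 SE, edgeR FDR 0.00471). In CAF-1 OFF none of the 14 was called, beside 0.0321% of all genes.

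**Figure D4:**
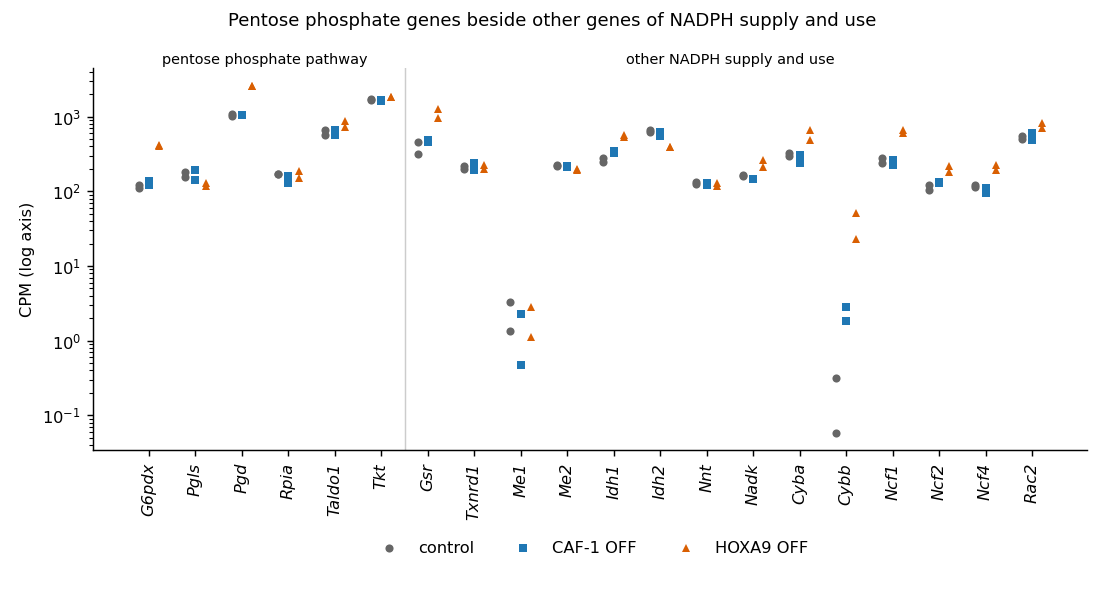
CPM (log axis) of the 6 pentose phosphate genes and of the 14 listed genes of NADPH supply and use, 1 point per library. HOXA9 OFF triangles stand above the other libraries for G6pdx, Pgd, Gsr, Idh1, Ncf1 and Cybb, and CAF-1 OFF squares lie near the grey control circles for most genes, with Cybb higher and 1 library of Me1 lower.

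Of the 3 hexokinases, which trap glucose in the cell, 2 were called higher in HOXA9 OFF, beside 13% of all genes. Hk1 (ENSMUSG00000037012.11, chr10:61731603-61842656) stood at 239 and 254 CPM in control, 313 and 305 in CAF-1 OFF, and 414 and 418 in HOXA9 OFF, with no overlap among the 3 groups (log2 fold change 0.76 ± 0.09 SE, edgeR FDR 0.00221). Hk2 (ENSMUSG00000000628.4, chr6:82675019-82724448) stood at 125 and 93.2 CPM in control, 130.1 and 154 in CAF-1 OFF, and 185 and 166 in HOXA9 OFF. Its HOXA9 OFF libraries were above both controls (log2 fold change 0.68 ± 0.17 SE, edgeR FDR 0.0226), and the call was lost without control replicate 2 or without either HOXA9 OFF library, with log2 fold changes from 0.49 to 0.90 when 1 library was left out. Hk3, the hexokinase abundant in blood cells, stood at 884 and 689 CPM in control, 778 and 734 in CAF-1 OFF, and 1193 and 1028 in HOXA9 OFF. It passed the FDR threshold but not the 1.5-fold minimum (log2 fold change 0.50 ± 0.14 SE, edgeR FDR 0.0406). Per kb, Hk3 made up 83.1 and 80.5% of the hexokinase transcripts in control, 78.3 and 76.4% in CAF-1 OFF and 80.3 and 78.4% in HOXA9 OFF, so the mix differed little between states. The summed hexokinase level was 289 and 232 CPM per kb in control and 404 and 356 CPM per kb in HOXA9 OFF. Upstream of them, the glucose transporter Slc2a1 (GLUT1) stood at 105 and 123 CPM in control, 98.7 and 85.2 in CAF-1 OFF, and 68.1 and 84.9 in HOXA9 OFF and was lower by less than 1.5-fold (log2 fold change -0.57 ± 0.15 SE, edgeR FDR 0.0299). Slc2a3 (GLUT3) stood at 16.5 and 13.1 CPM in control, 32.2 and 11.95 in CAF-1 OFF, and 13.8 and 17.9 in HOXA9 OFF, its groups overlapped, and the 2 CAF-1 OFF libraries differed widely. The mm9 exons listed for Hk1 and Slc2a1 overlap other genes by under 4% of their bases.

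In upper glycolysis, 1 gene was called higher and 1 lower among 7, beside 13% and 8.97% of all genes, so these counts lay near those of all genes. Aldoc (ENSMUSG00000017390.9, chr11:78136470-78141283), the brain-type aldolase, stood at 4.52 and 4.64 CPM in control, 6.55 and 4.20 in CAF-1 OFF, and 14.9 and 12.97 in HOXA9 OFF. HOXA9 OFF was above all other libraries (log2 fold change 1.61 ± 0.26 SE, edgeR FDR 0.00575). The gene nonetheless made up 0.881 and 0.697% of aldolase transcripts per kb in HOXA9 OFF, since Aldoa stood at 1454 and 1685 CPM in control, 1305 and 1128 in CAF-1 OFF, and 1416 and 1560.0 in HOXA9 OFF with no difference past the test (log2 fold change -0.08 ± 0.12 SE, edgeR FDR 0.673). Pfkp (ENSMUSG00000021196.7, chr13:6579014-6648023), the platelet-type phosphofructokinase, stood at 213 and 256.2 CPM in control, 175 and 207 in CAF-1 OFF, and 132 and 177 in HOXA9 OFF. Both HOXA9 OFF libraries were below both controls (log2 fold change -0.60 ± 0.18 SE, edgeR FDR 0.0412), and the call was lost without either control library or without HOXA9 OFF replicate 1, where log2 fold changes ran from -0.83 to -0.41 over the libraries left out. The exons of Pfkp overlap Pitrm1 on the other strand over 3.96% of their bases, and Pitrm1 averaged 197 ± 4.98 CPM in control and 157 ± 19.99 CPM in HOXA9 OFF. Pfkl supplied 62.9 and 66.3% of phosphofructokinase transcripts per kb in control and 70.2 and 68.3% in HOXA9 OFF. These shares depend on the length used. The merged exons span 4395 bases for Pfkl and 9395 for Pfkp, and the longest coding transcripts 3730 and 4145. Gpi1, which turns glucose-6-phosphate into fructose-6-phosphate at the branch point, stood at 699 and 683 CPM in control, 720.3 and 665 in CAF-1 OFF, and 1040.1 and 900.4 in HOXA9 OFF and passed the FDR threshold below 1.5-fold (log2 fold change 0.49 ± 0.11 SE, edgeR FDR 0.0164). Tpi1 (log2 fold change -0.44 ± 0.13 SE, edgeR FDR 0.0478) and the muscle-type phosphofructokinase Pfkm (log2 fold change -0.36 ± 0.11 SE, edgeR FDR 0.0457) did so in the other direction.

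In lower glycolysis, Eno1 was the called gene of 6 tested, lower in HOXA9 OFF, beside 8.97% of all genes. Eno1 (ENSMUSG00000063524.7, chr4:149610830-149622988), the ubiquitous enolase, stood at 666 and 811 CPM in control, 655 and 643 in CAF-1 OFF, and 402 and 494 in HOXA9 OFF. Both HOXA9 OFF libraries lay below the other 4 (log2 fold change -0.72 ± 0.14 SE, edgeR FDR 0.0110), and the call was lost without control replicate 2 or without HOXA9 OFF replicate 1 (log2 fold changes from -0.87 to -0.57 with 1 library left out). Most of its sequence is repeated elsewhere, as given above, so its level rests on the remaining unique stretches. Pkm2, the last step to pyruvate, stood at 1449 and 1462 CPM in control, 1175 and 1108 in CAF-1 OFF, and 1497 and 1579.9 in HOXA9 OFF, and its difference in HOXA9 OFF did not pass (log2 fold change 0.08 ± 0.09 SE, edgeR FDR 0.540). Gapdh (0.18 ± 0.26 SE), Pgk1 (-0.28 ± 0.16 SE), Pgam1 (0.02 ± 0.16 SE) and the muscle enolase Eno3 (-0.80 ± 0.40 SE) had log2 fold changes whose tests did not pass.

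Both lactate transporters of the set were called lower in HOXA9 OFF, beside 8.97% of all genes. Another monocarboxylate transporter from the further list, Slc16a7 (MCT2), stood at 7.31 and 7.26 CPM in control, 9.14 and 11.3 in CAF-1 OFF, and 9.505 and 13.8 in HOXA9 OFF, above control in both HOXA9 OFF libraries, and did not pass (log2 fold change 0.67 ± 0.24 SE, edgeR FDR 0.0778). Slc16a1 (ENSMUSG00000032902.1, chr3:104442591-104462385) encodes MCT1, which moves lactate and other monocarboxylates with a proton, and stood at 293 and 298 CPM in control, 270.1 and 256.2 in CAF-1 OFF, and 104 and 115 in HOXA9 OFF. Both HOXA9 OFF libraries were below the other 4, and control and CAF-1 OFF lay close together (log2 fold change -1.44 ± 0.10 SE, edgeR FDR 0.000475). Slc16a3 (ENSMUSG00000025161.10, chr11:120809794-120822182), whose values are given above, had HOXA9 OFF libraries at the level of CAF-1 OFF and below control (log2 fold change -0.74 ± 0.14 SE, edgeR FDR 0.00950), a call lost without control replicate 2 or without HOXA9 OFF replicate 1 (-0.87 to -0.62 with 1 library left out). Its exons overlap Csnk1d on the opposite strand over 15.6% of their bases, and Csnk1d averaged 194 ± 4.41 CPM in control, 192.1 ± 4.51 with Chaf1b knocked down and 202 ± 0.936 without estradiol. Ldha was lower by less than 1.5-fold (log2 fold change -0.52 ± 0.14 SE, edgeR FDR 0.0302). Slc16a1 made up 57.6 and 53.9% of the summed Slc16a1 and Slc16a3 transcripts per kb in control, 65.9 and 61.4% in CAF-1 OFF and 44.6 and 42.97% in HOXA9 OFF. The share was above control in both CAF-1 OFF libraries and below it in both HOXA9 OFF libraries, a description with no test. Summed per kb, these 2 transporters reached 115 and 125 CPM per kb in control, 92.6 and 94.3 in CAF-1 OFF and 52.6 and 60.2 in HOXA9 OFF.

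The promoters of the lactate genes are shown because all 3 were lower in HOXA9 OFF with an FDR under 0.05 and carry the motif letters searched. Strand and source are as above, with chr3:104638414-104638713 for Slc16a1, chr11:120948817-120949116 for Slc16a3 and chr7:46845554-46845853 for Ldha, all on the + strand.
Slc16a1: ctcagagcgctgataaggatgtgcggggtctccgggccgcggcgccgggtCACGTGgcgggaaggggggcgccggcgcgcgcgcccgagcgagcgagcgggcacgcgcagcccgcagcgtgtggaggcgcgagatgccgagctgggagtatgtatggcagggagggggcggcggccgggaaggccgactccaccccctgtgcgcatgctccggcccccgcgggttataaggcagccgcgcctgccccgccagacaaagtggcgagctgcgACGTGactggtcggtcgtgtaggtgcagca
Slc16a3: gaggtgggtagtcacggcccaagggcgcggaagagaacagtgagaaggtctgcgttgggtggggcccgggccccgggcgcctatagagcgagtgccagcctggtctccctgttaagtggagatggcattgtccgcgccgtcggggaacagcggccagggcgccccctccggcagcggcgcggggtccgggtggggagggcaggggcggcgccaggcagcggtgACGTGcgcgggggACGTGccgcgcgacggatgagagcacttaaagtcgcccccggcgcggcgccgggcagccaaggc
Ldha: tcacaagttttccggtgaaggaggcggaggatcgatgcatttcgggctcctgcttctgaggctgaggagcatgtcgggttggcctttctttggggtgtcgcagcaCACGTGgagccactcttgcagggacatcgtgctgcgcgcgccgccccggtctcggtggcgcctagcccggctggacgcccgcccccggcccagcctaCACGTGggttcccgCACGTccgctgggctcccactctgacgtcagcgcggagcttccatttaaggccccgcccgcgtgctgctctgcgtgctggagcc
Ldha held 5 matches to ACGTG counted on both strands, of which its 2 CACGTG sites gave 2 each. Slc16a1 held 3, 2 of them from 1 CACGTG, and Slc16a3 held 2. Among the 34 genes with a promoter in the table, 15 (44.1%) held ACGTG, beside 19.6% of 27025 promoters of the same length. CACGTG was found in 4 (11.8%; 7.24% of all), TTGCNNCAA in 1, Hk2 (2.94%; 2.12% of all), and CCGGAAG in 2, Aldoc and Rpia (5.88%; 9.14% of all). These shares are descriptions, and base composition was not matched. The lactate promoters were shown partly for carrying these letters, so their matches do not bear on direction. Pfkp, Eno1 and Pdk1, also called lower in HOXA9 OFF, held no ACGTG. Of the genes called higher there, Hk2, Aldoc and G6pdx held it, and Hk1, Pfkfb4 and Pgd did not.

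The switches around glycolysis differed by isozyme. PFKFB enzymes make and remove the activator of phosphofructokinase. Pfkfb4 (ENSMUSG00000025648.10, chr9:108893947-108934737) stood at 12.96 and 14.5 CPM in control, 10.7 and 10.2 in CAF-1 OFF, and 35.5 and 38.3 in HOXA9 OFF. HOXA9 OFF was above all other libraries and CAF-1 OFF below control (log2 fold change 1.43 ± 0.14 SE, edgeR FDR 0.00123). Pfkfb3, the isozyme most strongly biased towards making the activator, stood at 109 and 92.5 CPM in control, 118 and 123 in CAF-1 OFF, and 113 and 100.3 in HOXA9 OFF, and its difference did not pass (log2 fold change 0.08 ± 0.12 SE, edgeR FDR 0.663). Pfkfb2 stood at 23.96 and 15.2 CPM in control, 10.03 and 16.00 in CAF-1 OFF, and 31.6 and 25.5 in HOXA9 OFF (log2 fold change 0.54 ± 0.29 SE, edgeR FDR 0.210). Pfkfb4 made up 14.9 and 19.3% of the summed Pfkfb2, Pfkfb3 and Pfkfb4 transcripts per kb in control, 12.7 and 11.5% in CAF-1 OFF and 31.00 and 35.6% in HOXA9 OFF. Pfkfb3 was the most abundant of the 3 in every library, from 54.8% to 82.5%. Pfkfb1, from the further list and outside these shares, stood at 1.59 ± 0.168 CPM per kb in control, beside 1.92 ± 0.605 CPM per kb for Pfkfb2.

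Pyruvate dehydrogenase kinases shut off pyruvate dehydrogenase, which uses pyruvate inside the mitochondria. Pdk1 (ENSMUSG00000006494.5, chr2:71711281-71741915) was called lower in HOXA9 OFF, where both libraries were below the other 4 (log2 fold change -0.69 ± 0.11 SE, edgeR FDR 0.00525). Pdk2 had few reads, with 14 and 19 counts in control, 10 and 2 in CAF-1 OFF and 62 and 51 in HOXA9 OFF. Its difference from control did not pass (log2 fold change 1.90 ± 0.61 SE, edgeR FDR 0.0560), though the DESeq2 Wald test gave an adjusted p of 0.0458 and edgeR without the low-count filter an FDR of 0.00423. Pdk3 stood at 51.9 and 63.4 CPM in control, 61.7 and 63.9 in CAF-1 OFF, and 56.8 and 56.9 in HOXA9 OFF, and its log2 fold change in HOXA9 OFF was -0.02 ± 0.13 SE. Pdk1 made up 57.3 and 54.2% of these kinases per kb in control, 44.98 and 46.5% in CAF-1 OFF and 41.95 and 44.7% in HOXA9 OFF, with control above both treated states.

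**Figure D5:**
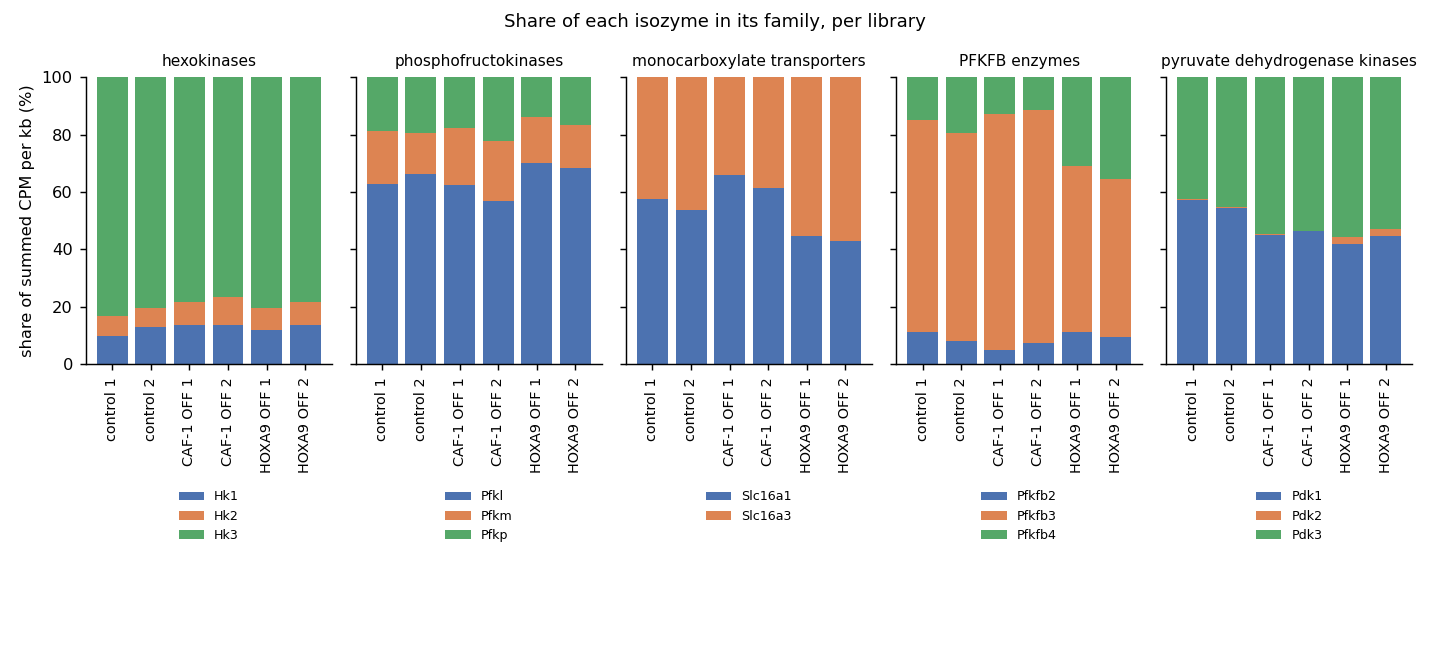
Share of each isozyme (y axis, % of the summed CPM per kb of exon of the family's members in the set) in 5 families, 1 bar per library. Hk3 and Pfkl dominate their families in all 6 bars, the Slc16a1 and Pfkfb4 shares separate HOXA9 OFF from the other libraries, and the Pdk1 share is highest in control. The size of each share depends on the exon length used.

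CAF-1 OFF and HOXA9 OFF were compared directly to ask where the 2 treated states differ. Of 33 genes, 7 were called, beside 22.1% of all genes, 1 higher in CAF-1 OFF (9.56% of all genes) and 6 lower (12.6%). Over all genes 1191 were higher and 1564 lower, and 1475 and 1334 with library size alone. Slc16a1 was higher in CAF-1 OFF (log2 fold change 1.27 ± 0.10 SE, edgeR FDR 0.000699), whereas Slc16a3 was at like levels in both (log2 fold change 0.10 ± 0.14 SE, edgeR FDR 0.632). G6pdx (log2 fold change -1.65 ± 0.11 SE, edgeR FDR 0.000409), Pgd (log2 fold change -1.29 ± 0.09 SE, edgeR FDR 0.000467) and Pfkfb4 (log2 fold change -1.82 ± 0.14 SE, edgeR FDR 0.000689) were lower in CAF-1 OFF. Aldoc (log2 fold change -1.38 ± 0.26 SE, edgeR FDR 0.0102) was also lower, a call lost without HOXA9 OFF replicate 1 (log2 fold changes from -1.73 to -1.07 with 1 library left out). Pfkfb2 (log2 fold change -1.13 ± 0.30 SE, edgeR FDR 0.0300) lost its call without CAF-1 OFF replicate 1 or either HOXA9 OFF library (-1.49 to -0.83), and with the replicate number as a block its FDR was 0.0504. Pdk2 (log2 fold change -3.27 ± 0.68 SE, edgeR FDR 0.0140), at the counts given above, lost it without HOXA9 OFF replicate 1 (-4.82 to -2.51). Another 5 genes had an FDR under 0.05 below 1.5-fold, namely Hk1, Hk3, Gpi1 and Pkm2, lower in CAF-1 OFF, and Eno1, higher. Over all 12460 genes, 3770 had an FDR under 0.05 at any fold change, and 2755 of them were called. All these comparisons use the same HOXA9 OFF libraries as the one with control.

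The rest of the pathway was counted from lists of 74 further genes, of which 57 were tested. In CAF-1 OFF none was called by edgeR, beside 0.0321% of all genes, and 1 was called by DESeq2, beside 1.54% of all genes. In HOXA9 OFF, 7 of the 57 were called higher and 6 lower, beside 13% and 8.97% of all genes, so these counts lay near those of all genes. Of 25 further isozymes and side enzymes, 13 were tested, 3 were called higher and none lower, among them the lysosomal glucose transporter Slc2a6 (log2 fold change 1.55 ± 0.43 SE, edgeR FDR 0.0346) and 9630033F20Rik, an older symbol of Tigar, a fructose-2,6-bisphosphatase (log2 fold change 0.61 ± 0.15 SE, edgeR FDR 0.0254). None of 10 genes of mitochondrial pyruvate use (the carrier, the pyruvate dehydrogenase complex with its phosphatases, and pyruvate carboxylase) was called in any comparison. Over all genes, 0.0321% were called in CAF-1 OFF, 22% in HOXA9 OFF and 22.1% in the direct comparison. Below 1.5-fold, Pdha1 (log2 fold change -0.42 ± 0.09 SE, edgeR FDR 0.0171), Dlat (log2 fold change -0.47 ± 0.10 SE, edgeR FDR 0.0125) and Pdp1 (log2 fold change -0.51 ± 0.16 SE, edgeR FDR 0.0493) had an FDR under 0.05 in HOXA9 OFF, all lower, and in the direct comparison Pdha1, Dlat and Pdhx passed it too, with CAF-1 OFF the higher group.

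Genes of gluconeogenesis and glycogen gave 3 called higher and 1 lower among 14 tested in HOXA9 OFF, beside 13% and 8.97% of all genes. The liver-type glycogen phosphorylase Pygl, which releases glucose units from glycogen, stood at 81.7 and 64.4 CPM in control, 73.2 and 66.99 in CAF-1 OFF, and 199 and 143 in HOXA9 OFF (log2 fold change 1.23 ± 0.19 SE, edgeR FDR 0.00468). Ugp2, which makes UDP-glucose for glycogen, had a log2 fold change of 0.80 ± 0.12 SE and G6pc3, the ubiquitous glucose-6-phosphatase, of -0.62 ± 0.15 SE (edgeR FDR 0.00443 and 0.0251). Fbp1, the fructose-1,6-bisphosphatase that runs against phosphofructokinase, stood at 3.54 and 2.32 CPM in control, 11.6 and 10.2 in CAF-1 OFF, and 2.65 and 2.79 in HOXA9 OFF. Both CAF-1 OFF libraries were above the other 4, a difference that passed against HOXA9 OFF (log2 fold change 2.00 ± 0.28 SE, edgeR FDR 0.00363) and not against control (log2 fold change 1.89 ± 0.28 SE, edgeR FDR 0.111).

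Side branches of glycolysis gave 3 called lower among 9 tested in HOXA9 OFF, beside 8.97% of all genes. Psat1, an enzyme of serine synthesis from 3-phosphoglycerate, stood at 1512 and 1595 CPM in control, 1405 and 1349 in CAF-1 OFF, and 606 and 681 in HOXA9 OFF (log2 fold change -1.27 ± 0.10 SE, edgeR FDR 0.00059), and Phgdh, the first enzyme of that branch, at 118 and 156 CPM in control, 102 and 95.7 in CAF-1 OFF, and 51.9 and 68.4 in HOXA9 OFF (log2 fold change -1.19 ± 0.18 SE, edgeR FDR 0.00485). Gpd1, which makes glycerol-3-phosphate, was lower at a small level (log2 fold change -1.37 ± 0.42 SE, edgeR FDR 0.0471). Among the regulators, Myc, a transcription factor that drives glycolytic and growth genes, stood at 582 and 549.7 CPM in control, 532 and 506 in CAF-1 OFF, and 306 and 296 in HOXA9 OFF. HOXA9 OFF was below the other 4 libraries (log2 fold change -0.91 ± 0.09 SE, edgeR FDR 0.00139). Mlx, the partner of the glucose-sensing Mondo factors, was higher (log2 fold change 0.95 ± 0.11 SE, edgeR FDR 0.00214). Txnip, a target of those factors that restrains glucose uptake, stood at 232 and 212 CPM in control, 169 and 175 in CAF-1 OFF, and 318 and 280.4 in HOXA9 OFF, with all 3 groups apart, and passed the FDR threshold below 1.5-fold in HOXA9 OFF (log2 fold change 0.43 ± 0.11 SE, edgeR FDR 0.0252). Against HOXA9 OFF, its CAF-1 OFF level was called lower (log2 fold change -0.80 ± 0.11 SE, edgeR FDR 0.00326). Hif1a in HOXA9 OFF did not pass (log2 fold change 0.30 ± 0.11 SE, edgeR FDR 0.0889).

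Among the hypoxia targets, HOXA9 OFF gave 2 called higher and 3 lower of 12, beside 13% and 8.97% of all genes. Vegfa, an angiogenic factor, stood at 53.8 and 52.8 CPM in control, 48.4 and 42.5 in CAF-1 OFF, and 100.3 and 113 in HOXA9 OFF (log2 fold change 1.00 ± 0.12 SE, edgeR FDR 0.00202), and Bnip3l, a mitophagy receptor, rose too (log2 fold change 0.65 ± 0.09 SE, edgeR FDR 0.00385). Egln3, an oxygen-sensing prolyl hydroxylase, stood at 360.1 and 506 CPM in control, 416 and 428 in CAF-1 OFF, and 149 and 206 in HOXA9 OFF (log2 fold change -1.29 ± 0.21 SE, edgeR FDR 0.00538), and Egln1, of the same family, was lower (log2 fold change -0.79 ± 0.17 SE, edgeR FDR 0.0144). Of the 12 tested genes, 10 had log2 fold changes below 0 in HOXA9 OFF, with a median of -0.24, beside 12 and a median of -0.25 in CAF-1 OFF. Both comparisons use the same control libraries.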

How the data were processed

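RNA-seq of 6 libraries (2 per group) was analysed. Per the labels and methods of the study, the authors mapped reads to mouse mm9 with STAR and produced gene counts with HTSeq-count. The deposited files hold these counts by symbol, not normalized, and the 5 tally lines at the end of each file were left out (89.6 to 107 multiply aligned and 5.95 to 8.26 unassigned alignments per 100 gene reads). Annotation, strand setting and overlap mode are not given in the sources used here.

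Groups came from the sample titles. R 4.3.3, edgeR 4.0.16 and limma 3.58.1 were used. filterByExpr kept 12460 genes, libraries were scaled by TMM (factors 0.954 to 1.03), and the quasi-likelihood model, fitted to the 6 libraries together, had 1 mean for each group. Calls required a change of 1.5-fold or more and a Benjamini-Hochberg FDR under 0.05 over all genes. SE is the absolute log2 fold change over the square root of F. CPM used TMM-scaled sizes. The CPM of 3 counts covers counting error only. The model was tested on simulated counts. Libraries of a group differed by more than sampling noise (chi-square per degree of freedom 21.4 to 28.9). Exon lengths and coordinates (1-based) came from GENCODE vM1 on NCBIM37, the assembly that mm9 names; 35 of 35 genes matched. Promoters came from RefSeq on GRCm38.p6; 34 of 35 genes matched, and the most upstream start was taken.

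The members, lists and tests were chosen with earlier results of these data known. Of the 35 genes, all may be named; of the other lists, genes called with a mean over 5 CPM, up to 4 per list and comparison by absolute log2 fold change, plus Chaf1b, Hoxa9, Hif1a, Myc and Txnip. Cd34, Kit, Mpo, Elane, Prtn3, Ctsg, Mmp8, Me1, Mki67, Slc16a7, Pfkfb1, F13a1, Ccr2, Pdha1, Dlat, Pdhx, Pdp1 and genes that overlap members stand outside that rule and were chosen after their values were seen. Some listed genes are counted but not reported here by name. Of the list symbols, 4 were found under older symbols. Alternatives were DESeq2 1.42.0 (size factors and Wald test), library size alone, other filters and cutoffs, fits to 4 libraries, a replicate block and fits without each library; a block with crossed numbers was added after seeing the data.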

Additional observations from a re-analysis of the deposited data

Results flagged for a closer look

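Reads outside the gene counts were flagged because both HOXA9 OFF libraries stood above both controls. Alignments that matched no annotated feature numbered 7.84 and 8.26 per 100 gene reads in HOXA9 OFF, 6.87 and 7.15 in control, and 5.95 and 7.30 in CAF-1 OFF. Multiply aligned ones went the other way in HOXA9 OFF. They numbered 91.2 and 89.6 per 100 gene reads there, 99.98 and 106.7 in control, and 106.6 and 92.8 in CAF-1 OFF. Pseudogene and copy rows of the 35 genes, 7 in all, held 0 to 10 counts and were not flagged. Groups of 2 libraries are too small for a test of single libraries that stand apart.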

How the results depend on the processing

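No called gene reversed its direction under any alternative run. For CAF-1 OFF against control, 0 of the 35 genes were called, 1 with DESeq2 and 1 without the low-count filter (Slc16a3 in both), and 0 when any library was left out. For HOXA9 OFF against control, 11 became 5 at 2-fold and FDR under 0.01, 17 with no fold minimum, and 7 to 13 with 1 library left out, where 7 came without control replicate 2 and without HOXA9 OFF replicate 1. For CAF-1 OFF against HOXA9 OFF, 7 became 4 and 12 under the same cutoffs, and 4 to 9 with 1 library left out (4 without HOXA9 OFF replicate 1). Among the further pathway genes, 0 in CAF-1 OFF became 1 with DESeq2, 4 without the filter and 1 with crossed numbers, and stayed 0 with any library left out. In HOXA9 OFF, 13 became 4 at 2-fold, 20 with no fold minimum and 8 to 13 with 1 library left out (8 without control replicate 2 and without HOXA9 OFF replicate 2), and between CAF-1 OFF and HOXA9 OFF, 12 became 6 at 2-fold and 8 to 13. Over all 12460 genes, calls in HOXA9 OFF against control went from 2740 to 987 at 2-fold and FDR under 0.01, and 3716 with no fold minimum. Between CAF-1 OFF and HOXA9 OFF they went from 2755 to 948 and 3770. Calls over all genes also fell in HOXA9 OFF against control when any control or HOXA9 OFF library was left out. In the direct comparison they fell without either HOXA9 OFF library, so the shares of all genes moved too. Other cutoffs count fewer or more genes by construction, and for the rest the cause was not tested. G6pdx, Pgd, Pfkfb4, Aldoc and Slc16a1 in HOXA9 OFF against control, and the first 3 and Slc16a1 against CAF-1 OFF, kept their calls under all 17 alternatives. In the 6 of these that leave out a library, 1 group has a single library, which is assumed to vary like the other groups.

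Replicate numbers were shared by the groups, but nothing in the labels paired the libraries. Same-numbered libraries deviated together with a correlation of -0.18 for CAF-1 OFF and control, 0.46 for HOXA9 OFF and control, and 0.03 for CAF-1 OFF and HOXA9 OFF. With the replicate block the calls among the 35 genes were 0, 11 and 6, and among further pathway genes 0, 13 and 13, for the 3 comparisons in the order above. With crossed numbers they were 0, 12 and 7, and 1, 14 and 14. Over all genes in CAF-1 OFF against control, calls numbered 4, 192 with DESeq2, 378 without the filter, 30 at FDR under 0.1, 2 with the block and 71 with crossed numbers. They were fewer without CAF-1 OFF replicate 2 or either control library, and more without CAF-1 OFF replicate 1 or either HOXA9 OFF library. With 2 libraries per group, genes at a few CPM had wide errors, with SE of 0.61 for Pdk2 and 0.40 for Eno3 on the log2 scale in HOXA9 OFF against control.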

Other observations

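Proliferation genes were measured beside the metabolic genes. Of 13 listed, none was called in CAF-1 OFF against control, beside 0.0321% of all genes, and 1 was called lower in HOXA9 OFF, beside 8.97% of all genes. That gene was Tyms, thymidylate synthase, at 198 and 214 CPM in control, 193 and 174 in CAF-1 OFF, and 138 and 132 in HOXA9 OFF (log2 fold change -0.61 ± 0.10 SE, edgeR FDR 0.00675). Rrm2, a subunit of ribonucleotide reductase, stood at 387 and 383 CPM in control, 541 and 584 in CAF-1 OFF, and 369 and 337 in HOXA9 OFF. Its CAF-1 OFF libraries were above the other 4, and the difference passed against HOXA9 OFF (log2 fold change 0.67 ± 0.10 SE, edgeR FDR 0.00447) but not against control (log2 fold change 0.55 ± 0.10 SE, edgeR FDR 0.153). The summed level of the 13 genes was 4231 and 3989.8 CPM in control, 4288 and 4632 CPM in CAF-1 OFF and 4119.7 and 3778 CPM in HOXA9 OFF. Mki67, a marker of cycling cells, stood at 323 and 239 CPM in control, 234 and 391 in CAF-1 OFF, and 494 and 446 in HOXA9 OFF. Without it the other 12 summed to 3908 and 3751 CPM in control, 4054 and 4242 CPM in CAF-1 OFF and 3626 and 3331 CPM in HOXA9 OFF, and 3 of the 13 had log2 fold changes above 0 in HOXA9 OFF.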
